A study of Homo sapiens with 3 samples.

Results

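The genes described here are the transcription coactivators YAP1 and WWTR1 (TAZ), their DNA-binding partner TEAD1, and 7 genes known as their targets or as parts of the Hippo pathway: CCN1 (CYR61), CCN2 (CTGF), ANKRD1, AMOTL2, AJUBA, LATS2 and AXL. All probe sets annotated to 1 of these 10 symbols and to no other gene were taken, which gave 31 of the 49395 probe sets of the array and 10 of 18132 genes. The values are log2 intensities from 3 Affymetrix arrays of KYSE150, a human oesophageal squamous carcinoma cell line. The vector control array held RNA from KYSE150 cells transfected with vector. The LOXL2 WT array held RNA from cells transfected with wild-type LOXL2 in the expression plasmid pcDNA3.1, and the LOXL2 delta72 array RNA from cells given the form named delta72 in that plasmid, which the labels do not describe further. All cells grew in RPMI medium with fetal calf serum, and RNA was taken 48 h after transfection. LOXL2 is an enzyme of the lysyl oxidase family, which oxidises lysines of collagen and elastin so that they can crosslink. With 1 array a condition no test was possible and no p-value is given, so a gene called higher or lower here is so on these arrays alone. Each array measured a whole transfected culture, in which fewer cells with a transcript and less transcript per cell cannot be told apart.

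YAP1 and WWTR1 carry no DNA-binding domain of their own and act on genes by binding TEAD transcription factors. The Hippo kinases hold them back: STK3 and STK4 activate LATS1 and LATS2, which phosphorylate YAP1 and WWTR1 and keep them out of the nucleus. The pathway responds to cell density, to tension in the cytoskeleton and to the stiffness of the surrounding matrix, and CCN1, CCN2 and ANKRD1 are its most widely used readout genes. Much of this control acts on protein location and phosphorylation, which an expression array does not measure.

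TEAD factors recognise the core motif CATTCC, which reads GGAATG on the other strand. It was searched on both strands of the 250 bases upstream of annotated transcript starts, in windows from RefSeq on GRCh38.p14. Such windows were found for 8 of the 10 genes (12 windows, since a gene can have several starts), and CCN1 and TEAD1 had none in the table used. The core occurred in 6 of the 12 windows, in 6 genes, against 11.9% of all 35116 windows of this length. The CCN2 window held 3 matches, a number reached in 0.0826% of all windows, and the ANKRD1 window held 2, a number reached in 0.94%. These are shown because CCN2 and ANKRD1 have the most matches and their readings differed from control in opposite directions. The ANKRD1 reading comes from 1 dim probe set, and it is not known whether it was above background. The matches are in capitals, and both sequences run 5′ to 3′ on the minus strand and end at the base before the start.
CCN2 (chr6:131951373-131951622): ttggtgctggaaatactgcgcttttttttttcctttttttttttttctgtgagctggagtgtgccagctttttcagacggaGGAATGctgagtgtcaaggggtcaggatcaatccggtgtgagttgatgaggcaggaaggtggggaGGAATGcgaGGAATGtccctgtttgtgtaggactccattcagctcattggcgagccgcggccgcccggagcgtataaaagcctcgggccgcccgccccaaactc
ANKRD1 (chr10:90921088-90921337): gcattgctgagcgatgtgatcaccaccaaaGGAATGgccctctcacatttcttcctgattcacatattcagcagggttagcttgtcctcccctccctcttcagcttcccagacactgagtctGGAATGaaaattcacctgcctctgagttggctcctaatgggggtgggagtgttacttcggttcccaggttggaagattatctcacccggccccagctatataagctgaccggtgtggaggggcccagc
The CCN2 matches begin 169, 104 and 95 bases before the start, and the ANKRD1 matches 220 and 128 bases before it. Single matches lay 162 bases before the start of YAP1, 69 before 1 of 2 starts of AMOTL2, 59 before 1 of 2 starts of AJUBA and 212 before 1 of 2 starts of AXL. The windows of WWTR1 and LATS2 held none, which says only that these letters are absent there.

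The transfected gene and the scale of the arrays were read first. The brightest LOXL2 probe set read 7.46 on the control array, 14.05 on the LOXL2 WT array and 14.06 on the LOXL2 delta72 array. Of its other 3 probe sets, 2 were also higher with both forms, by 2.64 to 5.16, and the last was lower, at 8.81, 8.32 and 8.66. Of 7 squamous markers, 5 had a probe set with a single symbol, and all 5 (KRT5, KRT14, SFN, DSG3, PKP1) lay above the filter value of 5.27, which is the 40th percentile of probe sets. With either form 4 of these 5 were lower than control, KRT14 most, at -0.67 with LOXL2 WT and -0.66 with LOXL2 delta72. Of the markers of other cell types, 0 of 4 glandular markers and 1 of 6 fibroblast markers (PDGFRB) lay above the filter value. The endothelial genes PECAM1, VWF and KDR (3 of 4) and the leukocyte gene CD3E (1 of 3 measured) lay just above it, between 5.34 and 6.05 on any array. Array medians lay between 5.93 and 5.95. Control probe sets moved between the arrays: the 23 background probe sets differed by a median of -0.10 (log2) between LOXL2 WT and control, and all 8 that were brighter than the filter value were lower on the LOXL2 WT array, by -0.19 to -0.29. The 18 hybridisation spike-in probe sets differed by a median of -0.094 with LOXL2 WT and -0.23 with LOXL2 delta72. The part of these shifts in the differences below was not tested.

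**Figure D1:**
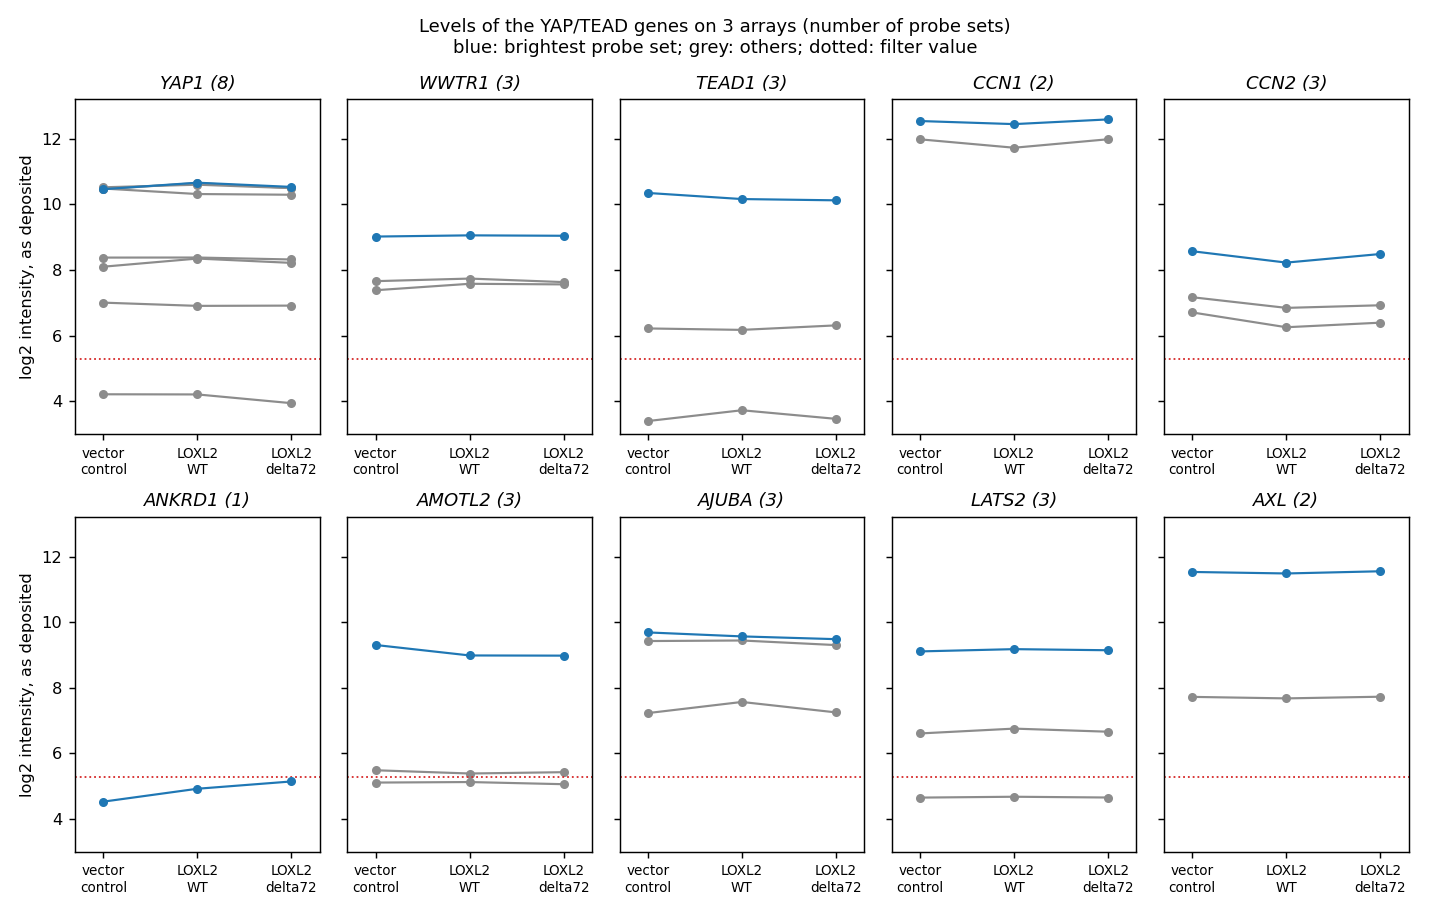
Log2 intensity as deposited (vertical axis) of every probe set of the 10 genes on the vector control, LOXL2 WT and LOXL2 delta72 arrays (horizontal axis). Blue lines join the values of the brightest probe set of a gene and grey lines those of its others. The dotted line is the filter value of 5.27, and the ANKRD1 probe set lies below it on all 3 arrays. Probe sets differ in binding, so heights within and between panels are not compared.

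Expression of the YAP/TEAD genes differed little between the arrays. Each gene was represented by its brightest probe set, and 9 of the 10 genes passed the filter, ANKRD1 being the exception. Of these 9 genes, 0 were at least 1.5-fold different between LOXL2 WT and control, where 2.71% of the 12232 genes above the filter were. Between LOXL2 delta72 and control the count was also 0 of 9, against 1.78% of all genes, and between both LOXL2 forms it was 0 of 9, against 0.221%. At such background shares a count of 0 among 9 genes sets these genes apart from no other genes. At a difference of at least 0.32 (log2), the count was 1 of 9 with LOXL2 WT, which was CCN2, against 17% of all genes. It was 1 of 9 with LOXL2 delta72, which was AMOTL2, against 12.2%, and 0 of 9 between the forms, against 2.53%. The median difference of the 9 genes was -0.094 with LOXL2 WT, 0.021 with LOXL2 delta72 and -0.013 for LOXL2 delta72 minus LOXL2 WT, beside medians over all genes of -0.0094, 0 and 0.0013. With LOXL2 WT, 3 of the 9 were higher and 6 lower than control, and with LOXL2 delta72, 5 were higher and 4 lower. Over all genes, 51.7% and 49.8% were lower.

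With LOXL2 WT, the differences from control that were largest in size belonged to CCN2 and AMOTL2, both lower, and to the dim ANKRD1 probe set, which was higher. With LOXL2 delta72 they belonged to ANKRD1 and AMOTL2. The widest differences of the control probe sets serve as a yardstick of technical scatter, the background probe sets first. It was 0.29 for LOXL2 WT minus control. By brightest probe sets above the filter, CCN2 and AMOTL2 exceeded it, both lower, and so did 21.7% of all genes. CCN2 exceeded it on all 3 probe sets and AMOTL2 on its brightest alone. Over all 31 probe sets, 7 exceeded it. Among them were higher readings of AJUBA on its dimmest probe set (0.34) and, below the filter, of TEAD1 (0.33) and ANKRD1 (0.39). For LOXL2 delta72 minus control it was 0.17, exceeded by TEAD1, AMOTL2 and AJUBA, each on its brightest probe set alone, and by 36% of all genes. CCN2 did not exceed it on its brightest probe set but did on its others, at -0.25 and -0.31. Over all 31 probe sets, 9 exceeded it. Among them were also probe sets of YAP1 (-0.19, and -0.27 below the filter), WWTR1 (0.18) and, below the filter, ANKRD1 (0.62). Between the forms it was 0.15, exceeded by 20.6% of all genes. Among brightest probe sets above the filter, only that of CCN2 exceeded it, at 0.26. The other CCN2 probe sets, at 0.080 and 0.14, did not reach it. Over all 31 probe sets, 6 exceeded it. Among them were the dimmer CCN1 probe set (0.26) and the dimmest of AJUBA (-0.32). Below the filter, probe sets of ANKRD1 (0.22), YAP1 (-0.27) and TEAD1 (-0.26) exceeded it too. The spike-in probe sets varied more in places. With LOXL2 delta72 they differed from control by up to 0.32 (hybridisation) and 0.31 (poly-A), which the difference of AMOTL2, at -0.33, exceeded narrowly and those of TEAD1 and AJUBA did not reach. With LOXL2 WT they differed by up to 0.25 and 0.27, less than any CCN2 probe set. Between the forms they differed by up to 0.20 and 0.18, which the same 6 probe sets exceeded that went beyond the background probe sets.

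**Figure D2:**
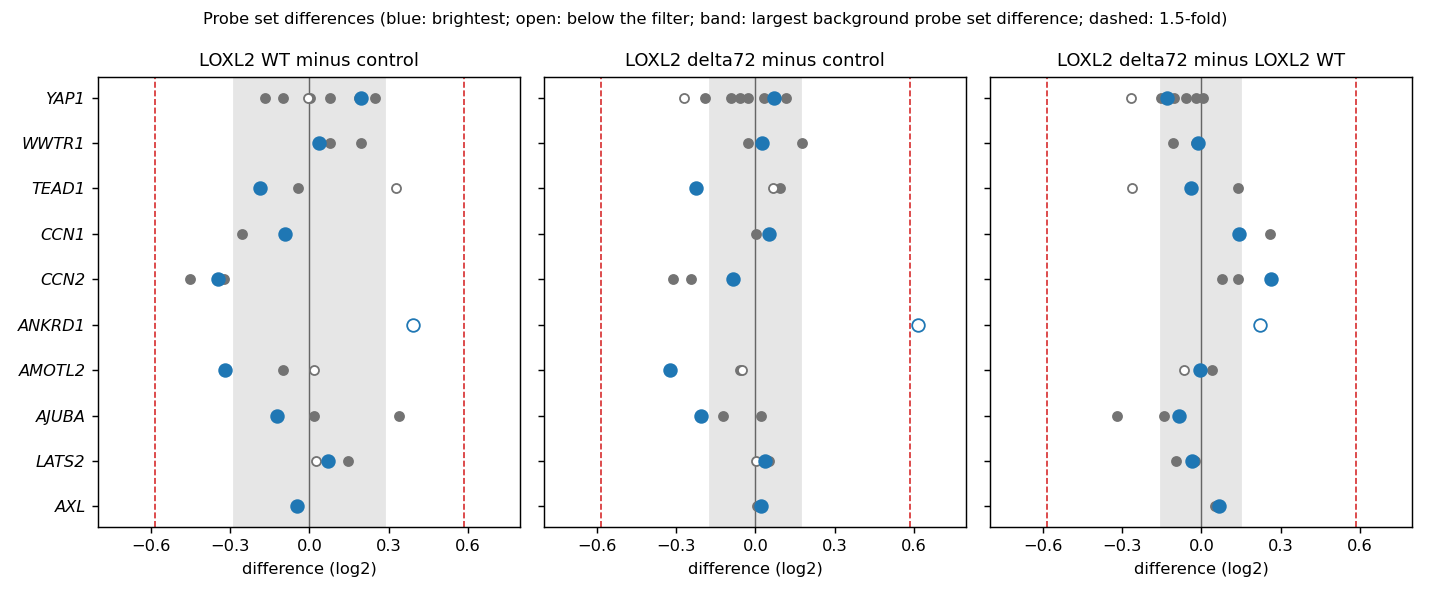
Log2 differences (horizontal axis) of every probe set of the 10 genes (rows) in the 3 comparisons. Large blue points are the brightest probe set of a gene, and small grey points its others. Open points lie below the filter, the grey band spans the widest background probe set difference (0.29, 0.17 and 0.15 to either side of 0), and dashed lines mark 1.5-fold. Filled points stay inside the dashed lines in all 3 panels, and only the open ANKRD1 point crosses one, with LOXL2 delta72.

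The coactivator YAP1 is read by 8 probe sets, 7 of them above the filter. The brightest read 10.46 on the control array, 10.66 with LOXL2 WT and 10.53 with LOXL2 delta72. Another, which gave an identical control value, read 10.46, 10.65 and 10.50, and a further one, whose name marks possible cross-hybridisation, read 10.52, 10.60 and 10.50. These 3 were highest on the LOXL2 WT array, by 0.079 to 0.20 over control. The remaining bright probe set, whose name marks that it can bind related transcripts, went the other way, with 10.48 on the control array, 10.32 with LOXL2 WT and 10.29 with LOXL2 delta72. Over all 8 probe sets the difference from control averaged 0.055 with LOXL2 WT (SD 0.15 between probe sets, 5 higher and 3 lower) and -0.052 with LOXL2 delta72 (SD 0.13, 3 higher and 5 lower). Neither difference was larger than the spread between probe sets. Between the forms, 7 of 8 probe sets read lower with LOXL2 delta72 than with LOXL2 WT, with a mean of -0.11 (SD 0.086).

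WWTR1, the paralogue of YAP1, is read by 3 probe sets. The brightest read 9.02 on the control array, 9.06 with LOXL2 WT and 9.04 with LOXL2 delta72. The others read 7.66, 7.74 and 7.63, and 7.38, 7.58 and 7.56. All 3 were highest on the LOXL2 WT array, with a mean difference from control of 0.10 (SD 0.083 between probe sets). With LOXL2 delta72 the mean difference was 0.058, which is within its SD of 0.11. The brightest probe set of WWTR1 lost its sign with LOXL2 WT when the arrays were shifted to a common median (-0.0045), and with LOXL2 delta72 under 3 alternative scalings, at its lowest -0.0087.

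TEAD1, which brings the coactivators to DNA, was lower with both forms on its brightest probe set alone. That probe set, whose name marks that it can bind related transcripts, read 10.35 on the control array, 10.16 with LOXL2 WT and 10.12 with LOXL2 delta72, or 1.14-fold and 1.17-fold lower. The middle probe set read 6.22, 6.17 and 6.31, and the dim one, below the filter, 3.39, 3.72 and 3.46. Over the 3 the difference averaged 0.033 with LOXL2 WT (SD 0.27) and -0.021 with LOXL2 delta72 (SD 0.18), so the probe sets of TEAD1 give no common direction.

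Of the readout genes, CCN1 and CCN2, which encode secreted matrix-associated proteins that bind integrins, shared their lowest reading on the LOXL2 WT array. The brightest CCN1 probe set read 12.54 on the control array, 12.45 with LOXL2 WT and 12.59 with LOXL2 delta72, and its other read 11.98, 11.73 and 11.99. With LOXL2 WT both probe sets were lower than control, by a mean of -0.18 (SD 0.11 over 2 probe sets). With LOXL2 delta72 both lay close to control, at a mean of 0.026 (SD 0.033). LOXL2 delta72 minus LOXL2 WT was 0.14 and 0.26 on the 2 probe sets. For its brightest probe set, 22.7% of all genes above the filter differed by as much between the forms.

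CCN2 was lower than control with both forms on every one of its probe sets. Its brightest probe set, which by its name can bind related transcripts, read 8.57 on the control array, 8.23 with LOXL2 WT and 8.49 with LOXL2 delta72. The others read 7.17, 6.84 and 6.92, and 6.70, 6.25 and 6.39. All 3 put the control array highest, the LOXL2 delta72 array in the middle and the LOXL2 WT array lowest. The mean difference was -0.37 with LOXL2 WT (SD 0.068 over 3 probe sets), with single probe sets between -0.45 and -0.33. With LOXL2 delta72 the mean was -0.21 (SD 0.12), from -0.31 on the dimmest to -0.085 on the brightest. LOXL2 delta72 read higher than LOXL2 WT on all 3 probe sets of CCN2, by a mean of 0.16 (SD 0.093). Differences of this size were common: 14.4% of all genes differed from control with LOXL2 WT by as much as the brightest CCN2 probe set, and 5.21% differed as much between the forms. The bright background probe sets were lower on the LOXL2 WT array too, by up to -0.29, and their part in the CCN2 reading was not tested.

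ANKRD1 encodes a nuclear and sarcomeric ankyrin repeat protein, and its transcription is a common reporter of YAP1 activity. Its single probe set read 4.53 on the control array, 4.92 with LOXL2 WT and 5.14 with LOXL2 delta72. All 3 values lie below the filter value of 5.27, so it is not known whether ANKRD1 was above background. The difference from control was 0.39 with LOXL2 WT and 0.62, or 1.53-fold, with LOXL2 delta72. The direction was opposite to that of CCN2. Among the 5900 genes below the filter, 0.407% were as much higher with LOXL2 delta72 as ANKRD1, and 2.32% were as much higher with LOXL2 WT. With 1 probe set there is no second reading on these arrays.

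AXL, a receptor tyrosine kinase of the TAM family and a known TEAD target, was nearly level across the arrays. Its brightest probe set read 11.53 on the control array, 11.49 with LOXL2 WT and 11.55 with LOXL2 delta72, and the other read 7.72, 7.68 and 7.73. Both AXL probe sets were lowest on the LOXL2 WT array, by -0.046 each, and both lay at or below 0.021 above control with LOXL2 delta72. As for CCN1 and CCN2, both AXL readings with LOXL2 delta72 lay above those with LOXL2 WT, here by 0.067 and 0.051. Differences at least as large as the former were found between the forms for 54.5% of all genes.

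The remaining genes encode regulators of the pathway that are themselves TEAD targets or partners of LATS kinases. AMOTL2, an angiomotin family protein that binds YAP1 at junctions, read 9.31 on the control array, 8.99 with LOXL2 WT and 8.98 with LOXL2 delta72 on its brightest probe set. The difference was -0.32 with LOXL2 WT and -0.33 with LOXL2 delta72, which share the control array. The other probe sets of AMOTL2 read 5.49, 5.39 and 5.43, and 5.11, 5.13 and 5.06, near or below the filter value. The mean difference over the 3 was -0.13 with LOXL2 WT (SD 0.17) and -0.14 with LOXL2 delta72 (SD 0.16), so the lower AMOTL2 reading rests on 1 probe set. Between the forms its brightest probe set differed by -0.0057.

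AJUBA is a LIM protein that binds LATS kinases at adherens junctions, and its probe sets disagreed. The brightest read 9.69 on the control array, 9.57 with LOXL2 WT and 9.48 with LOXL2 delta72. The others read 9.43, 9.44 and 9.30, and 7.23, 7.57 and 7.25. With LOXL2 WT the differences from control ran from -0.12 to 0.34 (SD 0.24), without a common direction. Between the forms, all 3 probe sets of AJUBA read lower with LOXL2 delta72 than with LOXL2 WT, by -0.084 to -0.32 (mean -0.18, SD 0.12).

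LATS2, the kinase that phosphorylates YAP1 and is also induced by it, read 9.11 on the control array, 9.18 with LOXL2 WT and 9.15 with LOXL2 delta72 on its brightest probe set. The others read 6.61, 6.76 and 6.66, and 4.65, 4.68 and 4.65. All 3 probe sets of LATS2 kept 1 order, with the LOXL2 WT array highest and the control array lowest, but the steps were small. The mean difference was 0.081 with LOXL2 WT (SD 0.061) and 0.030 with LOXL2 delta72 (SD 0.025). As many as 74.4% of all genes differed from control by at least as much with LOXL2 WT as its brightest probe set.

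Set beside each other, the probe sets of 3 target genes (CCN1, CCN2, AXL) read higher with LOXL2 delta72 than with LOXL2 WT, in 7 of 7 probe sets. The probe sets of WWTR1, AJUBA and LATS2 read lower, in 9 of 9, and YAP1 in 7 of 8. The single probe set of ANKRD1, below the filter, also read higher, by 0.22. Not all targets took this direction: AMOTL2 read higher on 1 probe set and lower on 2, as did TEAD1, and LATS2 is itself induced by YAP1. Of the 14 further target genes above the filter, described below, 6 were higher and 8 lower. Over all genes above the filter, 50.4% were higher. Control probe sets moved both ways. Of the 23 background probe sets, 20 were higher with LOXL2 delta72 than with LOXL2 WT, and all 8 above the filter value were, by 0.085 to 0.15. Of the 24 poly-A spike-in probe sets, 19 were higher, whereas all 18 hybridisation spike-in probe sets were lower, by -0.013 to -0.20. Over the 7 probe sets of CCN1, CCN2 and AXL, differences ran from 0.051 to 0.26. The part of the control probe set shifts in the higher and in the lower readings was not tested. The groupings of genes were made after the values were seen. Probe sets of a gene share the RNA of the culture and are not replicates. Over the 31 probe sets, 11 were higher and 20 lower with LOXL2 delta72 than with LOXL2 WT, and 16 were higher and 15 lower than control with either form.

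**Figure D3:**
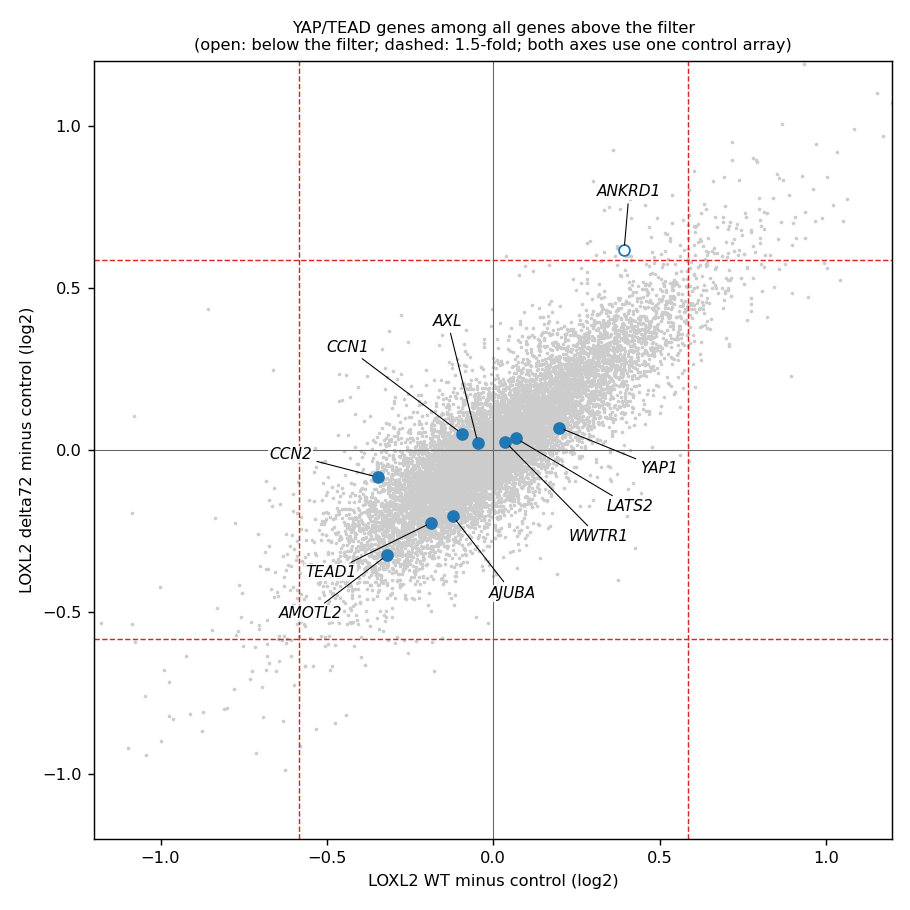
Difference from control with LOXL2 WT (horizontal axis) and with LOXL2 delta72 (vertical axis), both log2, for the brightest probe set of each gene above the filter (grey; 16 of 12232 genes lie outside the axes) and for the 10 YAP/TEAD genes (blue; open for ANKRD1, below the filter). Dashed lines mark 1.5-fold. The filled points lie within the central cloud. Both axes subtract the same control array, which by itself draws points towards the diagonal.

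Other genes of the pathway were read from lists. Among 18 Hippo kinases and upstream regulators, 16 passed the filter and 0 were at least 1.5-fold different in any of the 3 comparisons, beside 2.71%, 1.78% and 0.221% of all genes, shares at which a count of 0 is no result about these genes. Their median difference was -0.098 with LOXL2 WT (7 higher, 9 lower) and -0.062 with LOXL2 delta72 (5 higher, 11 lower). Over all genes, 51.7% and 49.8% were lower, and both comparisons share the control array. The 4 largest differences were in AMOTL1, an angiomotin family member, at -0.26 and -0.29, in MAP4K4, a kinase that acts on LATS, at -0.28 with both forms, in TAOK3, a kinase upstream of the Hippo kinases, at -0.16 and -0.28, and in SAV1, their scaffold, at -0.27 and -0.15. The first and second value of each pair are LOXL2 WT and LOXL2 delta72 minus control. Of these genes, SAV1 read lower on all 3 of its probe sets with both forms, whereas probe sets of AMOTL1, MAP4K4 and TAOK3 lay on both sides of 0.

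The TEAD paralogues, which can stand in for TEAD1, and the VGLL cofactors, which compete with YAP1 for TEAD binding, had 0 of 5 genes at 1.5-fold, beside those shares of all genes, which is again no result about them. With LOXL2 WT and LOXL2 delta72, TEAD2 was at 0.077 and -0.028, TEAD3 at -0.13 and -0.11, and TEAD4 at 0.029 and 0.075. VGLL4 was at 0.0051 and -0.040, and VGLL1 at -0.28 and -0.20 on its single probe set. VGLL3, below the filter, was at 0.41 and 0.32 on its brightest probe set, and its 3 probe sets lay on both sides of 0 with either form.

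Of 16 further YAP/TEAD target genes, 14 passed the filter. With LOXL2 WT 3 were higher and 11 lower, with a median of -0.085, and 0 reached 1.5-fold, against 2.71% of all genes. With LOXL2 delta72, compared with the same control array, 3 were higher and 11 lower, with a median of -0.12. Lower readings were found for 51.7% of all genes with LOXL2 WT and 49.8% with LOXL2 delta72. In the LOXL2 delta72 comparison 1 gene was at least 1.5-fold higher, against 1.28% of all genes (1.01% with the arrays shifted to a common median). This was IGFBP3, a secreted binding protein of insulin-like growth factors. Its brightest probe set read 5.66 on the control array, 6.004 with LOXL2 WT and 6.40 with LOXL2 delta72, a 1.68-fold difference for LOXL2 delta72, and its other probe set differed by 0.43. On the lower side were CCDC80, a secreted matrix-associated protein, at -0.48 and -0.44 (SD 0.25 and 0.17), and DOCK5, an activator of the GTPase RAC, at -0.35 and -0.45 (SD 0.27 and 0.26). Probe sets of CCDC80 and of DOCK5 lay on both sides of 0 with either form. RBMS3, an RNA-binding protein, was higher at 0.46 and 0.30, and its other probe set was at 0.12 and 0.087.

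Paralogues of the readout genes were dim or near level. CCN5 was at -0.16 with LOXL2 WT and -0.19 with LOXL2 delta72, and CCN3, at the filter value, at 0.027 and 0.12. CCN4, below the filter, was at -0.70 and -0.35, and CCN6, also below it, at 0.053 and 0.13. Among relatives of AXL, the receptor TYRO3 was at 0.0064 and 0.15. GAS6, the ligand of AXL, was lower with both forms, reading 8.33 on the control array, 7.92 with LOXL2 WT and 7.96 with LOXL2 delta72. Both GAS6 probe sets showed this, at -0.42 and -0.41 with LOXL2 WT and at -0.38 and -0.32 with LOXL2 delta72. MERTK, below the filter, was higher at 0.54 and 0.62.

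**Figure D4:**
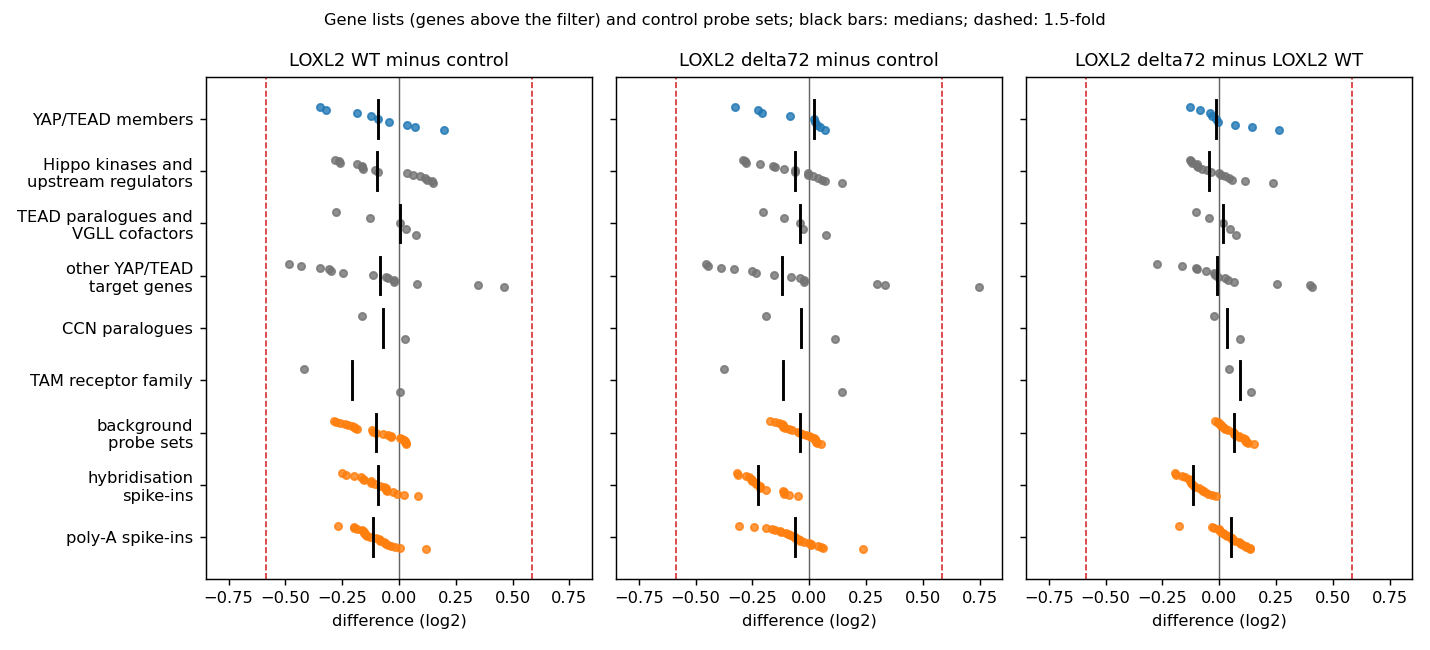
Log2 differences (horizontal axis) in the 3 comparisons for the genes above the filter of each list (rows; the YAP/TEAD genes in blue, other lists in grey) and for the control probe sets of the array (orange). Each point is a gene or control probe set, black bars are medians and dashed lines mark 1.5-fold. IGFBP3, at 0.75 with LOXL2 delta72, is the only gene beyond a dashed line in the lists drawn, which leave out the cell type markers.

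The genes whose differences were most like those of CCN1 and CCN2 were found by the Euclidean distance between their pairs of differences from control, over 3 arrays. FNDC5, PDIA2 and MAP2K3 were nearest to CCN1, at distances of 0.0031 to 0.0063. LRRC3, SPATA21 and TLR6 were nearest to CCN2, at 0.016 each. The measure singles out few genes, since 1467 genes lay within 0.1 of CCN1 and 320 within 0.1 of CCN2.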

How the data were processed

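Gene expression of KYSE150 cells was measured on 3 Affymetrix 3' arrays, from 100 ng of total RNA each, per the labels' protocols. The authors deposited 1 table of log2 intensities. The scale was taken from the values, which lay between 2.07 and 14.56. Partek and Affymetrix Expression Console appear in the submitters' processing notes. For their versions, the background correction and the normalization, nothing is stated in the sources used here. The near-equal array medians would hide a common shift.

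Genes were named from 44988 probe sets with 1 symbol in GEO's platform annotation. The 1832 with several and 2473 not listed were left out, as were 102 controls. The Entrez identifiers of all 31 member probe sets were found in RefSeq with the same symbol. A gene was represented by its brightest probe set over the 3 arrays and kept from the 40th percentile upwards (log2 5.27), which left 12232 genes. Differences are plain log2 subtractions, computed with Python 3.11.15 and pandas 2.3.3. The SD between probe sets holds no biological or hybridisation error, and the number of arrays limits the precision. Counting was run on simulated data as a check of the code, which says nothing about the precision of these arrays. Alternatives were 3 other scalings, the median over probe sets, other filters and other folds.

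The members and lists were chosen with earlier results of these data known. Named genes were LOXL2, all members, all genes of lists of up to 6, otherwise the 4 above the filter with the largest difference from control, and the 3 genes nearest to CCN1 and to CCN2.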

Additional observations from a re-analysis of the deposited data

How the results depend on the processing

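The medians over the YAP/TEAD genes moved by less than their probe error under all 6 alternatives of scaling, probe set and filter. The count at 1.5-fold stayed 0 in these alternatives except without the filter, where ANKRD1 made it 1 of 10 for LOXL2 delta72 minus control (1.48% of all genes). At a difference of at least log2 0.32 the count was 1 with LOXL2 WT (CCN2), 1 with LOXL2 delta72 (AMOTL2) and 0 between the forms, and at 2-fold it was 0 in each. Of 180 values of single genes under these alternatives, 175 moved by less than the pooled SD between probe sets and 5 by more, all with the median over probe sets: AMOTL2 (-0.099 and -0.059 against control), TEAD1 (0.068 with LOXL2 delta72) and CCN2 (-0.25 with LOXL2 delta72, 0.14 between the forms). The sign changed in 11 of the 180, none for CCN1, CCN2, ANKRD1 or LATS2. The other filters keep the same probe set of each gene, so their values for single genes could neither move nor change sign. The same holds for ANKRD1, with its single probe set, under the median over probe sets. The counts of 175 and 11 therefore include values fixed in advance. No paired analysis was possible because each condition had 1 array, and no array could be left out. Background probe sets themselves differed by up to 0.29 for LOXL2 WT minus control, 0.17 for LOXL2 delta72 minus control and 0.15 between the forms. The part of such technical scatter in the gene differences was not tested.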
